A study of Mus musculus with 10 samples.

Results

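The genes described here are receptors and a ligand of the EGF receptor family, measured in sorted mammary cells of FVB mice. They were chosen by name, as probe sets whose only gene symbol was 1 of 10 receptors and ligands of the family. Of those 10 genes, 3 had such a probe set, the receptors Egfr and Erbb3 and the ligand Nrg1, with 5 of the 3663 probe sets in the table between them. This was 2 of the 4 receptors and 1 of the 6 ligands. Erbb2, Erbb4, Areg, Ereg, Btc, Hbegf and Tgfa were not analysed here. The authors kept a probe set only if its highest and lowest arrays stood 4-fold or more apart, so all 3 genes vary among these arrays by construction, and how many of 10 genes passed that filter is no result about the family.

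Receptors of this family are tyrosine kinases that pair when a ligand binds and then signal through the Ras, MAP kinase and PI3 kinase pathways. Egfr encodes the receptor for EGF, amphiregulin and TGF alpha. Erbb3 encodes a receptor for neuregulins with little kinase activity of its own, which signals through its partner, most often ErbB2. Nrg1 encodes neuregulin 1, a ligand of ErbB3 and ErbB4. In the mammary gland the family is known for its part in ductal growth and alveolar development, and many of its ligands are cut from the cell surface before they act.

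RNA came from virgin FVB females aged 6 to 8 weeks, with no transgene or treatment named in any group. Digestion used collagenase/hyaluronidase, then dispase and a brief trypsin step. Blood, endothelial and stromal cells were removed by CD45, Ter119, CD31 and CD140α, and the other cells were sorted in 2 passes on CD24, CD49f and Thy-1. Each of the 5 populations had 2 arrays. CD24medCD49f-/low and CD24highCD49fmed are the luminal populations, and the study calls the second luminal progenitor cells. CD24medCD49fmed, Thy-1+CD24medCD49fhigh and Thy-1-CD24medCD49fhigh are the basal ones. For myoepithelial cells the study writes CD24lowCD49fmed and the labels write CD24medCD49fmed, and whether both name 1 gate is not given in the sources used here. The labels do not say that the arrays of a population are from different mice, so the spread behind each p-value is that between these arrays and may be technical.

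The values are log2 intensities from which each probe set's mean over the 10 arrays was taken away. A value of 0 is therefore a gene's own average, and neither the abundance of a gene nor an order of abundance between genes can be read. The median over probe sets lay between -0.43 and 0.17 in the 10 arrays, and the SD over probe sets between 0.51 in Thy-1+CD24medCD49fhigh replicate 2 and 1.30 in CD24highCD49fmed replicate 1. Only 3 of 10 arrays resembled their partner more than any other array, and the CD24medCD49f-/low arrays differed from each other most, by 0.92 per probe set on average. In a check of the labels, all 12 basal markers in the table were called higher in basal cells (median difference 3.50). Of 8 luminal markers, 5 were called lower (median -1.33), with 3 not called. In CD24highCD49fmed minus CD24medCD49f-/low, 0 of 8 luminal progenitor markers were called, as against 0.205% of all features. Their median difference was 0.38, near the 0.35 of all features, so these markers do not set the 2 luminal populations apart. In these sorted bulk samples, a higher share of cells that use a gene and more of its RNA per cell cannot be told apart.

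Egfr was higher in the basal than in the luminal populations. It read -1.32 and -0.48 in the CD24medCD49f-/low arrays and -0.62 and -0.94 in the CD24highCD49fmed arrays. It read 0.60 and 0.59 in CD24medCD49fmed, 1.09 and -0.11 in Thy-1+CD24medCD49fhigh, and 0.55 and 0.64 in Thy-1-CD24medCD49fhigh. Every basal array lay above every luminal array. The nearest was Thy-1+CD24medCD49fhigh replicate 2, the array with the smallest spread over probe sets, while its partner held the highest Egfr value of all 10. The mean of the 3 basal populations exceeded that of the 2 luminal ones by 1.40 ± 0.34 on the log2 scale (SE, 6 against 4 arrays), which is 2.64-fold, with a 95% confidence interval of 0.68 to 2.11 and an adjusted p of 0.00146.

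Erbb3 ran the other way. It read 0.14 and 2.04 in CD24medCD49f-/low and 0.38 and 0.89 in CD24highCD49fmed. The basal arrays read -1.29 and -0.10 in CD24medCD49fmed, -0.61 and 0.27 in Thy-1+CD24medCD49fhigh, and -1.30 and -0.43 in Thy-1-CD24medCD49fhigh. The sides overlapped through 1 basal array, Thy-1+CD24medCD49fhigh replicate 2, so 5 of 6 basal arrays lay below all luminal ones. Erbb3 was lower in basal cells by 2.71-fold, a difference of -1.44 ± 0.40 (SE, 6 against 4 arrays, 95% confidence interval -2.27 to -0.60, adjusted p = 0.00378). The highest value, in CD24medCD49f-/low replicate 2, set much of its size. Without that array the difference was -0.96, and without its partner -1.91, still called each time.

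Nrg1, the only ligand measured, followed Egfr in its side. Nrg1 was read by 1 probe set alone, 1456524_at, so its values have no other probe set to be compared with. It read -0.49 and -0.89 in CD24medCD49f-/low and -0.93 and -0.90 in CD24highCD49fmed. It read 0.65 and 0.62 in CD24medCD49fmed, 0.04 and -0.05 in Thy-1+CD24medCD49fhigh, and 0.64 and 1.30 in Thy-1-CD24medCD49fhigh. No basal array overlapped a luminal one, and among the basal arrays the Thy-1+CD24medCD49fhigh pair was the lowest. Nrg1 was higher in basal cells by 1.34 ± 0.32 (SE, 6 against 4 arrays), or 2.53-fold, with a 95% confidence interval of 0.67 to 2.00 and an adjusted p of 0.00116.

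**Figure D1:**
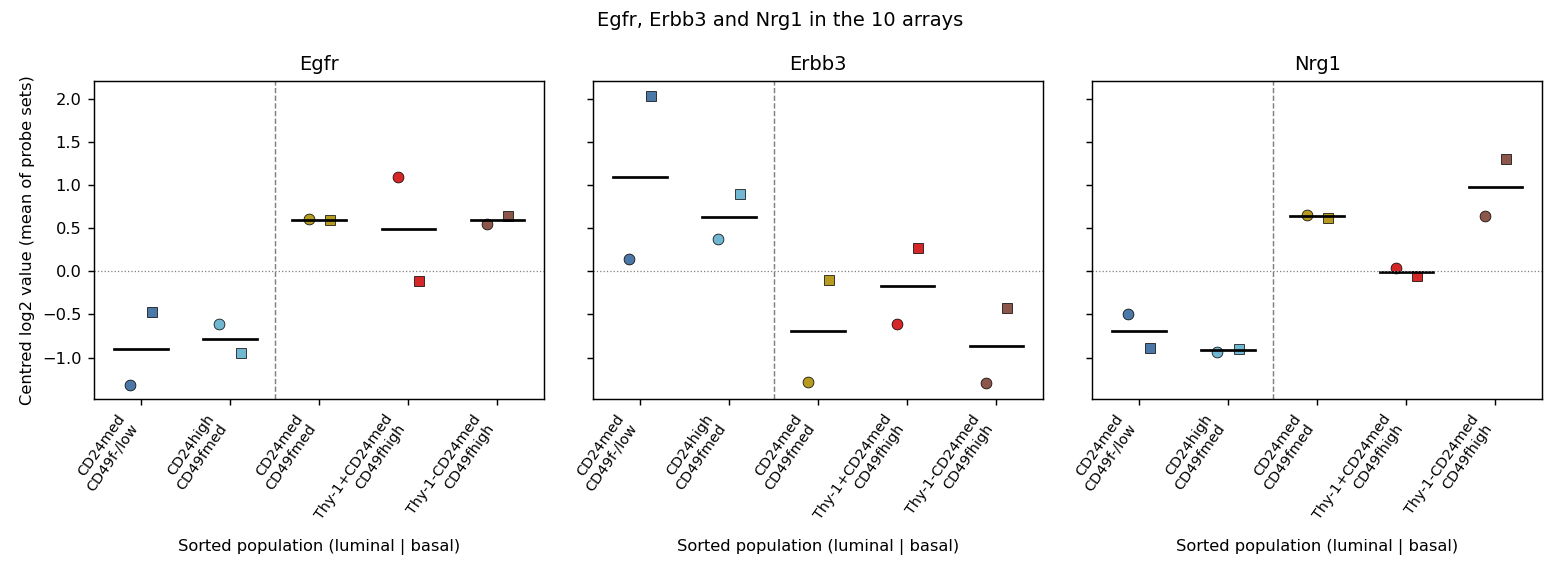
Centred log2 values of Egfr, Erbb3 and Nrg1 (y axis, mean of a gene's probe sets) in the 5 sorted populations (x axis), with the luminal populations left of the dashed line and the basal ones right of it. Each point is an array (circle and square, the lower and the higher replicate number) and each bar the mean of 2 arrays. Egfr and Nrg1 have all 6 basal arrays above all 4 luminal arrays, and Erbb3 has 5 of 6 basal arrays below them.

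On the averages of probe sets, these differences were of ordinary size for this table. Basal and luminal cells differed in 76.0% of the 2932 features tested (named genes and probe sets without a single name), and in 49.0% the arrays of the sides did not overlap, as against 3 of 3 and 2 of 3 of the family genes. By size of the difference, Nrg1 stood at place 1207, Egfr at 1102 and Erbb3 at 1051 of 2932. The place of Erbb3 came from averaging probe sets that stood far apart. Among 3663 probe sets, 1434606_at of Erbb3 stood at place 515 and 1452482_at at 3188. Those of Egfr stood at 1140 (1451530_at) and 2024 (1424932_at). With rank products, the test of the study, none of the 3 passed its threshold of p under 0.01 in this comparison, where 439 features (15.0%) did. Its p was 0.149 for higher Egfr, 0.151 for higher Nrg1 and 0.0498 for lower Erbb3.

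Across all 5 populations, the F test called 58.4% of features and all 3 family genes, with adjusted p of 0.0260 for Egfr, 0.0384 for Erbb3 and 0.0109 for Nrg1. Fewer of the 3 genes were called when some single arrays were left out. The share of all features called in those fits was not counted, so the loss is not read as particular to the family. Without CD24highCD49fmed replicate 1, or without replicate 2, 0 of the 3 genes were called. Leaving out Thy-1-CD24medCD49fhigh replicate 1 or replicate 2 left 1 gene called. Leaving out CD24medCD49fmed replicate 2 or either Thy-1+CD24medCD49fhigh array left 2.

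Each gene was also compared over all 10 pairs of populations. Of the 18 gene and pair combinations that set a luminal against a basal population, 12 were called. Of the 12 within a lineage, 0 were called, in pairs where between 0% and 0.205% of all features were called. By the average of its probe sets, Egfr differed in 5 of 6 luminal and basal pairs. The exception was CD24medCD49f-/low against Thy-1+CD24medCD49fhigh, with an adjusted p of 0.057 where 26.1% of features were called. Nrg1 differed in 4 of 6, namely each luminal population against CD24medCD49fmed and against Thy-1-CD24medCD49fhigh. Against Thy-1+CD24medCD49fhigh its adjusted p was 0.273 for CD24medCD49f-/low and 0.110 for CD24highCD49fmed. Erbb3 differed in 3 of 6, CD24medCD49f-/low against CD24medCD49fmed and both luminal populations against Thy-1-CD24medCD49fhigh. The shares of all features called ran from 27.2% and 35.2% for CD24medCD49f-/low against Thy-1-CD24medCD49fhigh and CD24medCD49fmed to 60.0%, 62.0% and 67.0% for CD24highCD49fmed against Thy-1-CD24medCD49fhigh, Thy-1+CD24medCD49fhigh and CD24medCD49fmed. Leaving out single arrays gave between 4 and 12 calls, 4 of them without either CD24highCD49fmed array, 5 without CD24medCD49fmed replicate 2 or Thy-1-CD24medCD49fhigh replicate 2, 6 without Thy-1-CD24medCD49fhigh replicate 1 and 7 without CD24medCD49fmed replicate 3. The share of all features called was not counted in those fits. The pairs share arrays and are not independent of each other.

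The order of the population means differed by gene. For Egfr it ran from CD24medCD49fmed (0.60) through Thy-1-CD24medCD49fhigh (0.59) and Thy-1+CD24medCD49fhigh (0.49) to CD24highCD49fmed (-0.78) and CD24medCD49f-/low (-0.90). Only the step from Thy-1+CD24medCD49fhigh to CD24highCD49fmed, 1.27 ± 0.53, exceeded the spread between arrays (adjusted p = 0.044). For Erbb3 the order was CD24medCD49f-/low (1.09), CD24highCD49fmed (0.64), Thy-1+CD24medCD49fhigh (-0.17), CD24medCD49fmed (-0.69) and Thy-1-CD24medCD49fhigh (-0.86), and no neighbours in it were called different. For Nrg1 it was Thy-1-CD24medCD49fhigh (0.97), CD24medCD49fmed (0.64), Thy-1+CD24medCD49fhigh (-0.01), CD24medCD49f-/low (-0.69) and CD24highCD49fmed (-0.92). No neighbours were called there either, although the arrays of Thy-1+CD24medCD49fhigh overlapped neither those above nor those below. The same held for 22.0% of all features between CD24medCD49fmed and Thy-1+CD24medCD49fhigh, and for 64.5% between CD24medCD49f-/low and Thy-1+CD24medCD49fhigh. On the averages of probe sets, the luminal populations thus held the highest Erbb3 means and the lowest Egfr and Nrg1 means. The probe sets of Erbb3 disagreed on this. In 1452482_at, Thy-1+CD24medCD49fhigh (0.09) stood above CD24highCD49fmed (-0.25). In 1434606_at both luminal means were on top, and the step from CD24medCD49f-/low to Thy-1+CD24medCD49fhigh was called (1.63 ± 0.60, adjusted p = 0.043).

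Between the luminal populations, none of the 3 genes was called different. CD24highCD49fmed minus CD24medCD49f-/low was 0.12 ± 0.53 for Egfr (95% confidence interval -0.99 to 1.23), -0.45 ± 0.62 for Erbb3 (-1.75 to 0.84) and -0.23 ± 0.50 for Nrg1 (-1.25 to 0.81). These intervals, from 2 arrays against 2, leave room for a 2-fold rise of Egfr and for a 2-fold drop of Erbb3 or Nrg1. Only 6 features, 0.205%, were called here by limma, with 451 at an unadjusted p under 0.05. The median over all features was 0.35 in this comparison and -0.03 once array medians were set to 0, under which the sign of the Egfr difference turned to -0.26. The Erbb3 difference rested on CD24medCD49f-/low replicate 2 for its sign, and was 0.49 without it.

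The study asks what sets Thy-1+ apart from Thy-1- CD24medCD49fhigh cells. Here Nrg1 had the largest difference of the 3 genes, -0.98 ± 0.50, with all values lower in the Thy-1+ arrays (0.04 and -0.05) than in the Thy-1- arrays (0.64 and 1.30). The arrays of these populations did not overlap in 22.5% of all features. Its 95% confidence interval was -2.01 to 0.05 and its unadjusted p 0.0609. It was not called over all features, where 2 of 2932 (0.0682%) were called by limma and 74 had an unadjusted p under 0.05. By size it stood at place 137, and by rank products its p for lower values was 0.0108, just short of the 0.01 threshold. Leaving out single arrays moved the difference between -1.31 and -0.65. Erbb3 differed by 0.69 ± 0.62 (-0.61 to 1.99) and Egfr by -0.10 ± 0.53 (-1.21 to 1.01), both with overlapping arrays and not called.

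CD24medCD49fmed differed from the mean of the CD24medCD49fhigh populations by 0.06 ± 0.46 in Egfr (95% confidence interval -0.90 to 1.02), by -0.17 ± 0.54 in Erbb3 (-1.30 to 0.95) and by 0.15 ± 0.43 in Nrg1 (-0.74 to 1.05). None was called, as against 1 feature of 2932 (0.0341%) by limma and 52 at an unadjusted p under 0.05. Set against each CD24medCD49fhigh population alone, 3 features (0.102%) were called against Thy-1- cells and 0 of 2932 (0%) against Thy-1+ cells, with 46 at an unadjusted p under 0.05 by limma in the second. None of them was a family gene. With the replicate number as a block the Erbb3 difference was -1.29, not called. In that fit CD24medCD49fmed rests on its replicate 2 alone, because no other population has a replicate 3. The signs of these small differences turned under several alternatives and are not read as directions.

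**Figure D2:**
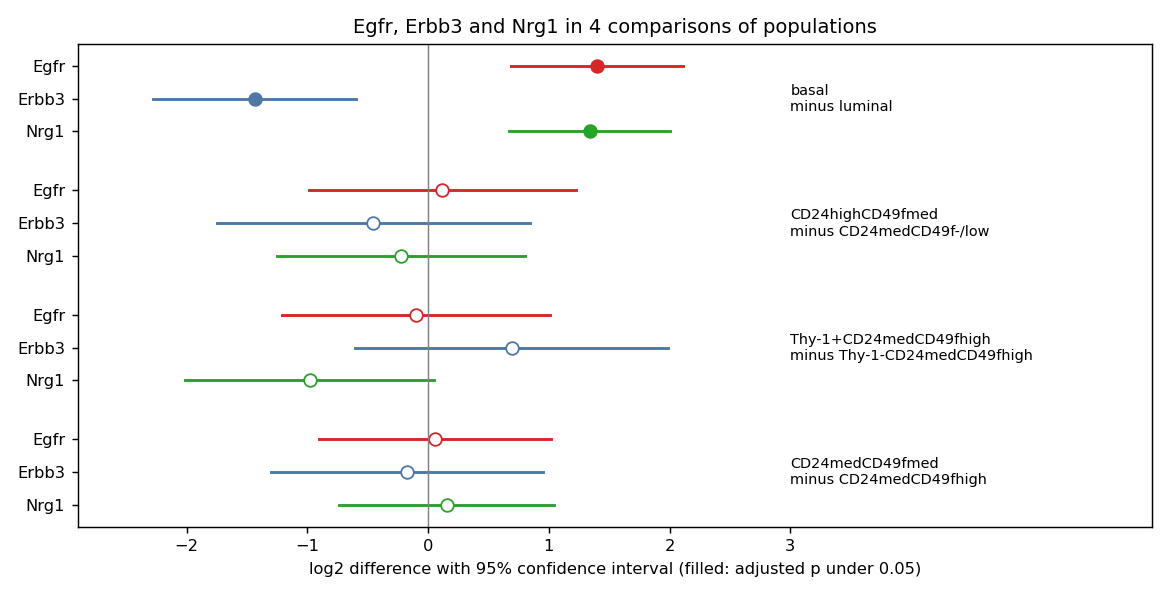
Log2 differences (x axis) of Egfr, Erbb3 and Nrg1 in 4 comparisons of populations, with 95% confidence intervals as lines and filled points for an adjusted p under 0.05. The points of basal minus luminal are filled, at 1.40, -1.44 and 1.34, and every interval of the other comparisons crosses 0.

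Egfr and Erbb3 were each read by 2 probe sets. The probe sets of Egfr, 1424932_at and 1451530_at, were annotated to the same sequence record and gave basal minus luminal differences of 1.19 ± 0.34 (adjusted p = 0.00376 over all probe sets) and 1.61 ± 0.36 (0.000577). In both, all 6 basal arrays lay above all luminal arrays. In the pairs of CD24highCD49fmed with each basal population, only 1451530_at was called. There the adjusted p of 1424932_at was 0.061 against CD24medCD49fmed, 0.118 against Thy-1+CD24medCD49fhigh and 0.152 against Thy-1-CD24medCD49fhigh. For CD24medCD49f-/low against Thy-1+CD24medCD49fhigh, 1424932_at was called (0.0492) and 1451530_at was not (0.0546). Against Thy-1-CD24medCD49fhigh, 1424932_at was not called (0.0586) and 1451530_at was (0.0251).

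The probe sets of Erbb3, 1434606_at and 1452482_at, were annotated to different records. Probe set 1434606_at read 0.82 and 1.58 in CD24medCD49f-/low, 1.30 and 1.75 in CD24highCD49fmed, -1.45 and -0.44 in CD24medCD49fmed, -1.03 and 0.17 in Thy-1+CD24medCD49fhigh, and -2.11 and -0.59 in Thy-1-CD24medCD49fhigh. Every basal array was below every luminal one, with a difference of -2.27 ± 0.39 (4.82-fold, adjusted p = 4.15e-05). Probe set 1452482_at read -0.54 and 2.50 in CD24medCD49f-/low, -0.54 and 0.04 in CD24highCD49fmed, -1.13 and 0.25 in CD24medCD49fmed, -0.19 and 0.36 in Thy-1+CD24medCD49fhigh, and -0.49 and -0.26 in Thy-1-CD24medCD49fhigh. It was high in 1 array, CD24medCD49f-/low replicate 2, and its difference of -0.61 ± 0.46 was not called (adjusted p = 0.223).

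The lower Erbb3 of basal cells was therefore a call of probe set 1434606_at and of the average, and not of both probe sets. The gap between them, 1434606_at minus 1452482_at, was -0.67 ± 0.53 in the basal arrays (SD, n = 6) and 1.00 ± 1.29 in the luminal arrays (SD, n = 4). That difference of -1.66 gave p = 0.0333 in a two-sided exact permutation test over arrays, or 0.0667 after adjustment over the genes with 2 probe sets. For Egfr the same gap differed by -0.43 (exact permutation p = 0.119). This comparison was chosen after the values were seen. Over the 10 arrays the probe sets correlated with r = 0.918 for Egfr and r = 0.495 for Erbb3, given as a description of arrays that fall into basal and luminal.

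**Figure D3:**
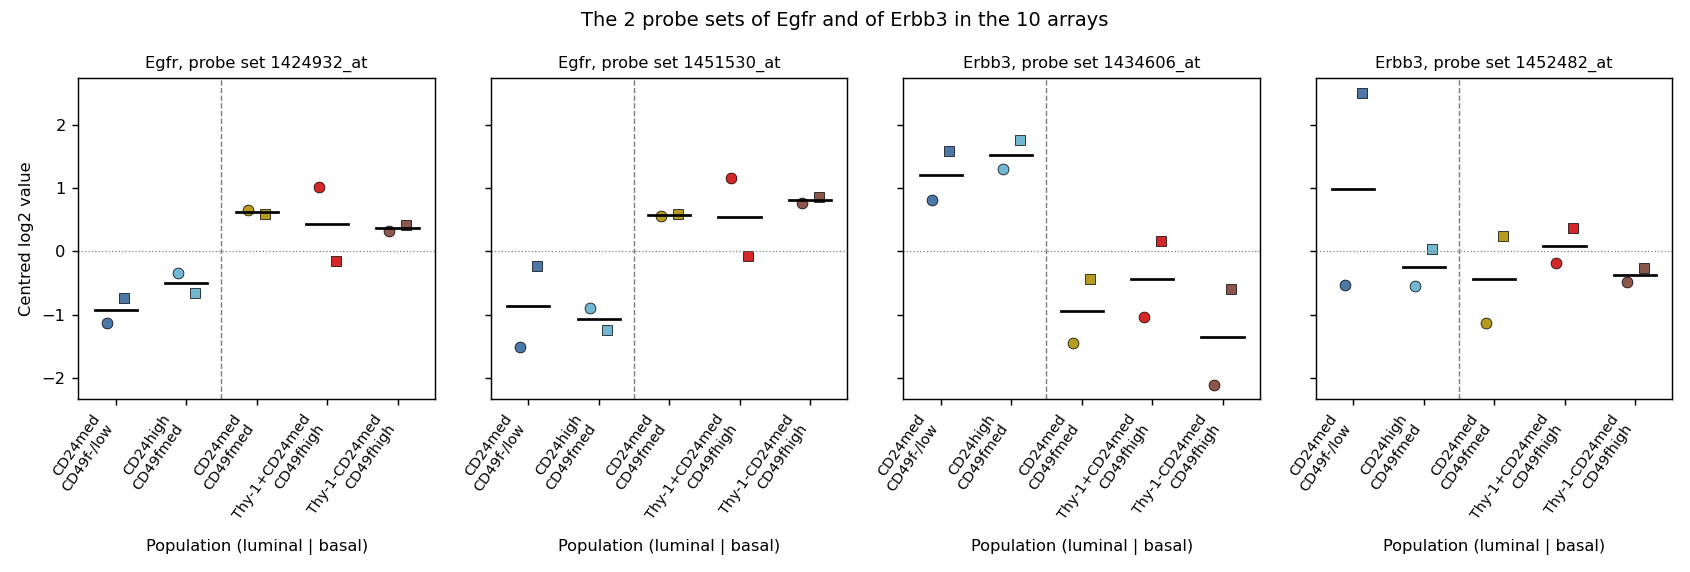
Centred log2 values (y axis) of the 2 probe sets of Egfr and the 2 of Erbb3 in the 5 sorted populations (x axis, luminal left of the dashed line), with arrays as points (circle and square, the lower and the higher replicate number) and means of 2 arrays as bars. Probe set 1434606_at of Erbb3 has all basal arrays below all luminal arrays, while 1452482_at stands out in 1 luminal array, at 2.50.

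Markers of cell types were set beside the family genes. Within populations, the array with the higher Erbb3 value was also the array with the higher median of the luminal markers in 5 of 5 populations, as against 2 of 5 for Egfr and for Nrg1. The luminal marker median was 0.17 and 1.70 in the CD24medCD49f-/low arrays, where Erbb3 read 0.14 and 2.04. It was -1.76 and 0.03 in the CD24medCD49fmed arrays, where Erbb3 read -1.29 and -0.10. This was not particular to the luminal list. The hormone sensing median and the leukocyte marker Lcp1 were higher in the same array as Erbb3 in every population. The median over all probe sets was too, except in Thy-1+CD24medCD49fhigh (0.14 and 0.05). How many of all features agree in this way, here or with the lists below, was not counted. Whether luminal cells in the basal gates had a part in the Erbb3 values was not tested.

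Erbb3 and Nrg1 are also used by Schwann cells and stroma. The 6 of 9 Schwann cell markers in the table, Erbb3 not among them, were all called higher in basal cells, with medians per array of -1.32 to -0.76 in luminal and 0.22 to 0.94 in basal arrays. Of 7 fibroblast markers in the table, 6 were called higher and 1 lower. Of all features, 76.0% were called in this comparison, in either direction. Among the basal populations, the Thy-1-CD24medCD49fhigh arrays, with the highest Nrg1 mean, had the lowest medians of both lists, 0.32 and 0.22 for Schwann cell markers and -0.23 and -0.15 for fibroblast markers. The Thy-1+CD24medCD49fhigh arrays, with the lowest Nrg1 mean of the basal populations, had the highest, 0.94 and 0.80 for Schwann cell markers, and read 1.55 and 1.10 for fibroblast markers. Within populations, the array with the higher Nrg1 value also had the higher fibroblast median in 4 of 5 populations and the higher Schwann cell median in 2 of 5. For Egfr it was 4 of 5 with either list, and for Erbb3 1 of 5 with either list. Since values are centred, no marker can be read as absent.

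Markers of epidermal keratinocytes and pericytes also moved with the basal side. Of 8 keratinocyte markers in the table, 5 were called higher in basal cells and 0 lower, with a median of 1.61. Of 6 pericyte markers 4 were called higher and 0 lower, with a median of 0.98. These shares called, 62.5% and 66.7%, were below the 76.0% of all features. The keratinocyte median was 2.15 in Thy-1+CD24medCD49fhigh replicate 1, which held the highest Egfr value (1.09), and -0.09 in replicate 2, where Egfr read -0.11. It was 1.78 and -0.05 in the CD24medCD49fmed arrays, where Egfr read 0.60 and 0.59, and -0.88 and -0.57 in the Thy-1-CD24medCD49fhigh arrays, where Egfr read 0.55 and 0.64. Between Thy-1+ and Thy-1- CD24medCD49fhigh cells, the difference was above 0 for 8 of 8 keratinocyte markers (median 1.67) and for 6 of 6 pericyte markers (median 1.16), and none of them was called. No endothelial marker of 10 and 1 leukocyte marker of 11 were in the table. The part of any of these cells in the difference between basal and luminal arrays was not tested.

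In sign, Egfr and Nrg1 were on the same side of their own averages in 10 of 10 arrays, and Egfr and Erbb3 on opposite sides in 10 of 10. In Thy-1+CD24medCD49fhigh replicate 2, Egfr (-0.11) and Nrg1 (-0.05) lay near 0. How many of all features match or oppose Egfr in this way was not counted. The genes whose values followed each most closely over the 10 arrays, by Pearson's r among 2559 other named genes, were Crtap (0.986) and Ajuba (0.977) for Egfr, Tjp3 (0.978) and Dhrs3 (0.975) for Erbb3, and Ankrd6 (0.985) and Lrfn5 (0.977) for Nrg1. Crtap encodes a cartilage-associated protein of collagen modification, Ajuba a LIM domain protein of cell junctions, and Tjp3 a tight junction protein. All arrays share the split into basal and luminal, which alone gives high correlations and can give such agreement in sign.

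Genes that act around the receptors were taken from lists by role, of which 32 of 107 genes were in the table. Between basal and luminal cells 14 were called higher and 11 lower in basal cells, with 7 not called. This was 78.1% called, near the 76.0% of all features, and the median difference was 0.52 against -0.11 over all features. In each of the 3 comparisons within a lineage, 0 of the 32 were called by limma, as against 0.0341% to 0.205% of all features.

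Of the genes for shedding of ligands, 4 of 11 were in the table, with 2 higher, 1 lower and 1 not called. Timp3, an inhibitor of metalloproteinases and of ADAM17, the main sheddase of EGF receptor ligands, was higher in basal cells by 3.04 ± 0.32 (8.24-fold, adjusted p = 1.56e-07). Its luminal arrays lay between -2.23 and -1.47 and its basal arrays between 0.69 and 1.63. Adam19, a metalloproteinase known to process neuregulin, was higher by 1.29 ± 0.32. Adam9, of the same family, was lower by a difference of -1.32 ± 0.34.

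Of the receptor adaptors and kinases, 10 of 42 were in the table, with 2 called higher, 5 lower and 3 not called, and a median difference of -0.60. Higher in basal cells were Shc4 (1.80 ± 0.38), an adaptor of the Shc family, and Plcg1 (1.47 ± 0.33), phospholipase C gamma 1. Its relative Plcg2 went the other way and was the lowest of the list (-2.28 ± 0.39). Also lower were Gab2 (-2.03 ± 0.36), a docking protein that recruits PI3 kinase, and the adaptors Grb7 (-1.72 ± 0.38), which binds ErbB2 and ErbB3, and Grb10 (-1.13 ± 0.38). Grb10 was -0.96 (adjusted p = 0.0525) without Thy-1+CD24medCD49fhigh replicate 1 and -0.88 (0.0583) without Thy-1-CD24medCD49fhigh replicate 1, and so lost its call. The fifth, Grb14, named outside the rule, was near the threshold (-0.75 ± 0.34, adjusted p = 0.0479) and lost its call in 6 of the 10 fits that left out an array (CD24medCD49f-/low replicate 1, CD24highCD49fmed replicate 2, CD24medCD49fmed replicate 2, Thy-1+CD24medCD49fhigh replicate 1 and either Thy-1-CD24medCD49fhigh array), with differences of -0.79 to -0.52 there.

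Of the inhibitors of the receptors and their feedback, 11 of 27 were in the table, with 6 called higher, 4 lower and 1 not called, and a median of 1.12. Higher were Socs3 (2.45 ± 0.50), a suppressor of cytokine signalling, Spry1 (1.93 ± 0.32) and Spred1 (1.22 ± 0.35), inhibitors of the Ras pathway, and Errfi1 (1.61 ± 0.35), which binds and blocks the EGF receptor kinase. Socs3 read -3.07 and 0.57 in the CD24medCD49f-/low arrays, so its difference was 1.54 without the first, still called. Lrig3 and Lrig1, of a family of membrane proteins that act on ErbB receptors and named after their values were seen, were higher by 1.20 ± 0.35 and 1.12 ± 0.36. Lrig1 lost its call without CD24highCD49fmed replicate 1 (1.00, adjusted p = 0.0525). Lower were Dusp4 (-1.61 ± 0.36), a MAP kinase phosphatase, Ptprk (-1.37 ± 0.36), a receptor phosphatase, Socs4 (-1.24 ± 0.32) and Rasa1 (-1.04 ± 0.35), a Ras GTPase activator. Rasa1 lost its call without the same array (adjusted p = 0.0506).

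Of the genes known to respond to EGF, 7 of 22 were in the table, with 4 called higher, 1 lower and 2 not called, and a median of 1.64. The transcription factors Egr3 (2.66 ± 0.35), Etv5 (2.33 ± 0.34), Egr2 (1.88 ± 0.31) and Etv4 (1.64 ± 0.32) were higher in basal cells, and Klf2 (-1.78 ± 0.31) was lower. Many signals induce these genes. The immediate early members can also rise while tissue is dissociated, a step that all samples shared, and its part was not tested.

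**Figure D4:**
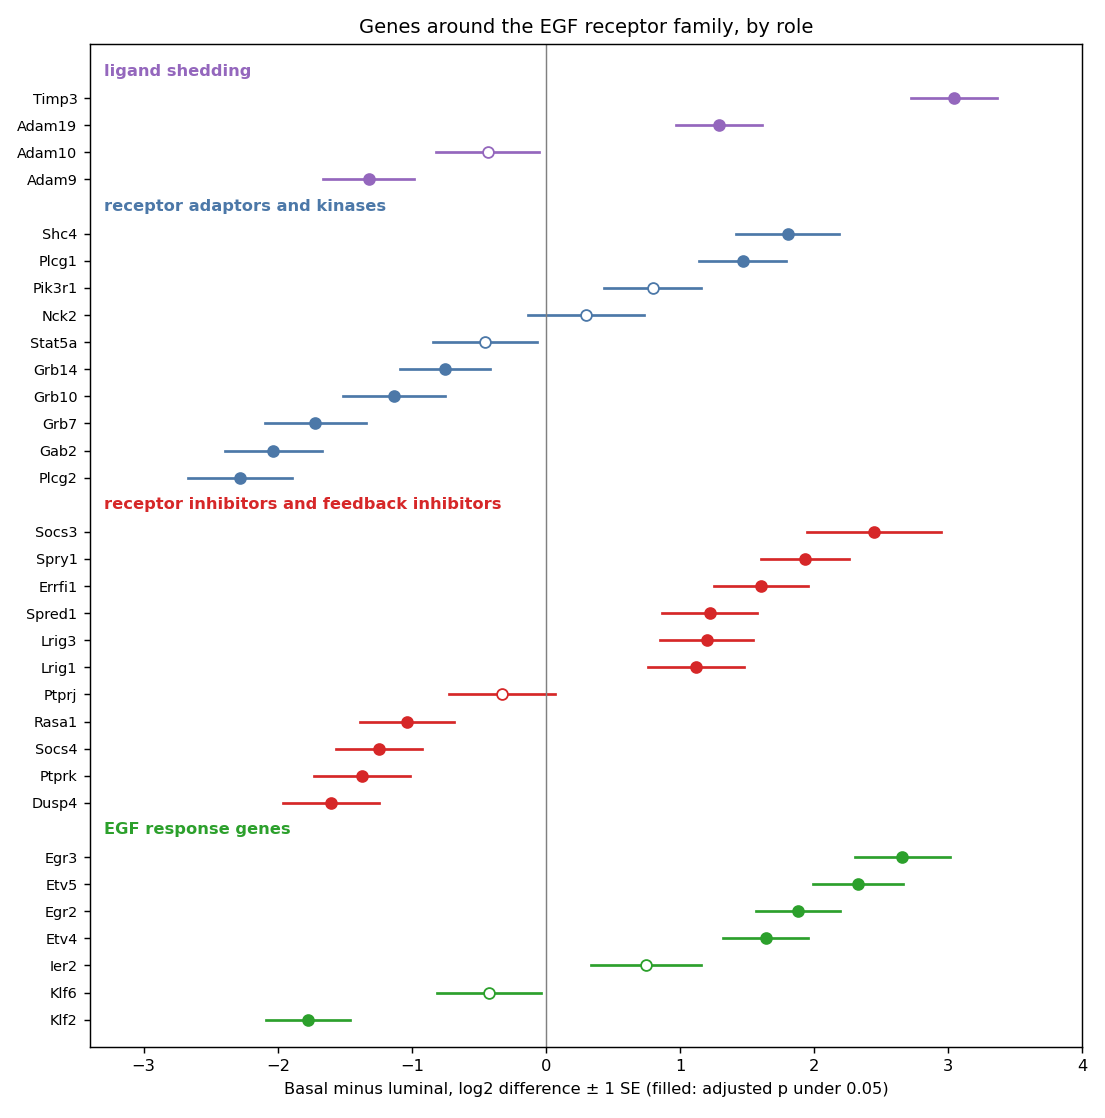
Basal minus luminal log2 differences (x axis) with 1 SE as lines for the 32 genes around the receptors that were in the table (y axis), by role. Filled points passed an adjusted p under 0.05, and each role holds genes on both sides of 0, from Timp3 at 3.04 to Plcg2 at -2.28.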

How the data were processed

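RNA was measured on Affymetrix 3' arrays after amplification in 2 cycles, in 10 arrays of 5 populations, all of them used. The deposited log2 values were normalised by the authors across arrays, filtered to probe sets over a minimum level with at least a 4-fold range, and centred (largest absolute mean 3e-07, smallest range 2.00). The methods name RMA, the labels RMA and GCRMA, and no version is given. The filter leaves less variable genes out of the background of every test. Precision is limited by the number of arrays.

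Of 3663 probe sets, 3291 had 1 gene symbol in the platform annotation, 75 had several and 297 had none listed. Probe sets of the 554 genes with more than 1 were averaged, which gave 2932 features, 2560 of them named genes. A mean per population was fitted to all arrays with limma 3.58.1 in R 4.3.3, with 5 residual and 16.5 prior degrees of freedom. Tests were two-sided, and a feature counted as called under 0.05 after Benjamini-Hochberg adjustment within its comparison. The methods' rank products test (100 permutations, p under 0.01) was an alternative, beside array medians at 0, quantile normalisation, robust moderation, a replicate block, a minimum range of 3, probe sets alone and each array left out. Named were all family genes, up to 4 called genes per list and direction in basal minus luminal, and the 2 genes most like each family gene. The genes and lists were chosen with earlier results of these data known. Table columns that belong to no sample of the series numbered 0. No genome build was used.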

Additional observations from a re-analysis of the deposited data

Results flagged for a closer look

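Nrg1 in CD24medCD49f-/low replicate 1 read -0.49, apart from the other 3 luminal arrays, which lay between -0.93 and -0.89. The gap was 0.901 of the range of the 4 arrays, above Dixon's critical value of 0.829. Among 14 sets of luminal or basal arrays examined, this was the only 1 so marked, and chance marks about 1 in 20. Without that array, basal minus luminal was 1.44 for Nrg1.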

How the results depend on the processing

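Basal minus luminal kept its direction for the 3 family genes under every alternative run, from 1.14 to 1.61 for Egfr, -2.27 to -0.61 for Erbb3 and 1.09 to 1.45 for Nrg1. Of 204 alternative values of the family genes, 188 kept direction and side of the threshold, 1 lost its call (Erbb3 by probe set 1452482_at alone) and 15 changed sign, all of them within a lineage and not called. With array medians at 0, Egfr turned to -0.26 between the luminal populations and to -0.0033 for CD24medCD49fmed against CD24medCD49fhigh. By single probe sets, Egfr turned to -0.20 (luminal), 0.066 (Thy-1+ against Thy-1-) and -0.11 (CD24medCD49fmed), and Erbb3 to 0.33 (luminal). With 1 array left out, the luminal difference ran from -0.30 to 0.54 for Egfr and -1.40 to 0.49 for Erbb3, the Thy-1 difference from -0.70 to 0.50 for Egfr, and the CD24medCD49fmed difference from -0.24 to 0.36 for Egfr, -0.77 to 0.42 for Erbb3 and -0.012 to 0.32 for Nrg1. In such a fit, the lone array of a population is assumed to vary like the other groups.

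With a minimum range of 3, which left 716 features and only Erbb3 of the family, 1 family gene was called between basal and luminal cells, 0 in the F test and 2 times in the pairs. With probe sets tested alone, and a gene counted where every probe set was called the same way, the pairs gave 5 calls. Rank products called 0 of the family genes between basal and luminal cells. Quantile normalisation gave 2 family genes in the F test and 9 calls in the pairs, array medians at 0 gave 9 calls in the pairs, and probe sets alone gave 2 genes in the F test and 2 between basal and luminal cells. With single arrays left out, the F test called 0 to 3 family genes and the pairs gave 4 to 12 calls. Leaving out both CD24medCD49f-/low arrays, an alternative chosen after seeing the data, gave 1.34 for Egfr, -1.21 for Erbb3 and 1.45 for Nrg1, all called. The causes of these changes were not tested beyond fewer features, arrays or probe sets. Rank products aside, shares of all features called were not counted in these alternatives, with or without an array left out. The changes in calls are therefore not read as particular to the family.

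Replicate numbers were not taken to pair the samples, since over 10 pairs of populations that share a number, the deviations of same-numbered arrays correlated between -0.51 and 0.52, with 2 over 0.1. Those were the luminal populations (0.52) and Thy-1+ with Thy-1- CD24medCD49fhigh cells (0.30). In each of these pairs both populations hold replicates 1 and 2. The block therefore leaves their differences unchanged by design, which says nothing about pairing. Its effect on their errors is not given here. With the replicate number as a block, basal minus luminal was 1.42 for Egfr, -1.81 for Erbb3 and 1.33 for Nrg1, 3 family genes were called there and in the F test, and the pairs gave 8 calls. CD24medCD49fmed minus CD24medCD49fhigh moved to -1.29 for Erbb3 and 0.13 for Egfr, not called. The share of all features called with the block was not counted either.

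Of 488 alternative values of the genes around the receptors, 462 kept direction and side, 10 lost and 11 gained a call, and 5 changed sign. The 5 were uncalled genes, Nck2 (-0.43 to 1.02) and Ptprj (-0.74 to 0.085) without CD24medCD49f-/low replicate 1, and Adam10 (-0.92 to 0.045), Stat5a (-1.04 to 0.13) and Klf6 (-0.97 to 0.12) without replicate 2, each given as its range over arrays left out.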
